A study of Mus musculus with 12 samples.

Results

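The genes Igfbp4, Tdrp, Pik3ip1, Plac8, Dapl1, Kbtbd11 and Gm2682 were described in CD8 T cells from the pancreatic islets and spleen of nonobese diabetic (NOD) mice. They were 7 of the 32285 genes listed in each expression matrix, and they were selected on their RNA levels in the islets, low in tetramer-positive and higher in tetramer-negative cells. The values of that contrast are therefore a description here and carry no test. The questions were how far each gene's level and detection differed among the 3 sorted populations, and whether the level within a population differed with the size of the T-cell clone.

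Resting T cells hold their metabolism, division and effector programmes in check, and they circulate through lymphoid tissue until antigen calls them into the cycle. This resting state is known to be kept by transcription factors such as Klf2, Foxo1, Tcf7 and Lef1 and by survival signals through the IL-7 receptor. Signalling through the T-cell receptor activates phosphoinositide 3-kinase (PI3K) and Akt, and many transcripts of resting cells are lost as cells divide and differentiate. Among the described genes, Igfbp4 encodes a secreted protein that binds insulin-like growth factors, and Pik3ip1 encodes a transmembrane protein that restrains PI3K. Plac8 encodes a small cysteine-rich protein, Dapl1 a death-associated protein-like product and Kbtbd11 a protein with kelch repeats and a BTB domain. Tdrp was named for a role in testis development, and Gm2682 is a long intergenic non-coding RNA.

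The mice were NOD/ShiLtJ animals between 10 and 15 weeks old, with no transgene or treatment named in the labels. CD45.1+ CD8+ cells lacking CD4, B220 and CD11b were sorted by binding of an NRP-V7/Kd tetramer, whose peptide is a mimic of an epitope of the β-cell protein IGRP. The populations were islet cells without tetramer (islet IGRP-), islet cells with it (islet IGRP+) and spleen cells with it (spleen IGRP+), the last also described by the study as CD44+, and each was sequenced in Rounds 1 and 2. Each round was 1 pool of 10 mice and a separate sequencing run, so n was 2 libraries per population, the spread between rounds could be biological or technical, and islet IGRP- cells may hold T cells of many other specificities.

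After filters on mitochondrial share and genes per cell, 1204 to 8932 cells and between 5880696 and 40469961 unique molecular identifiers (UMIs) were kept per library. The median depth was 3793 to 4216.5 UMIs per cell in the islet libraries and 2590 and 2764.5 in the spleen libraries. All 6 CD8 T-cell markers were detected in every library, with a summed level of 4198 to 5884 CPM (UMIs scaled to a common total per library). The CD4 T, natural killer and erythroid lists each summed to at most 1.38 CPM in any library. The myeloid list of 7 genes summed to 168 and 181 CPM in islet IGRP-, 202 and 225 CPM in islet IGRP+ and 188 and 206 CPM in spleen IGRP+. The exocrine list summed to 128 and 429 CPM in islet IGRP- Rounds 1 and 2, to 56.8 and 160 CPM in islet IGRP+, and to 5.62 and 6.51 CPM in spleen IGRP+. The endocrine list summed to 137 CPM in islet IGRP- Round 1 and to 0.104 to 13.9 CPM in the other libraries. The B-cell list summed to 46.7 and 41.6 CPM in islet IGRP-, to 15.3 and 16.8 CPM in islet IGRP+ and to 75.5 and 62.2 CPM in spleen IGRP+, so it moved with the described genes. Its largest component was Ighm, and 1 to 3 of its 5 genes were at 0 in each library. The stroma and endothelium list moved with them too, at 21.1 and 21.5 CPM in islet IGRP-, 5.10 and 5.26 CPM in islet IGRP+ and 15.7 and 13.8 CPM in spleen IGRP+, with 0 to 3 of its 5 genes at 0. The part of both lists in the results was not tested. Libraries shared from 2 to 64 cell barcodes per pair, at most 1.03% of the smaller library, and no shared barcode carried the same clone in both libraries.

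In the GENCODE M21 annotation of GRCm38, Igfbp4 lies at chr11:99041244-99054392 on the plus strand and Pik3ip1 at chr11:3330401-3342971 on the plus strand. Plac8 lies at chr5:100553725-100572245 on the minus strand, and Dapl1 at chr2:59484653-59505020 on the plus strand. Tdrp, at chr8:13952008-13975032 on the minus strand, and Kbtbd11, at chr8:15011025-15033333 on the plus strand, are 1035993 bases apart on the same chromosome. Gm2682 lies at chr15:60120540-60187408 on the minus strand. An antisense gene, 5830468F06Rik, overlaps Kbtbd11 and held 228 UMIs over all kept cells against 2967 for Kbtbd11, and Gm12592 overlaps the start of Pik3ip1 on the opposite strand and held 24 UMIs against 1967. The use of strand in counting was not given in the sources used here, so reads from these overlaps cannot be told apart.

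Promoter windows of 300 bases, 250 before and 50 after the annotated start, were held for 4 of the 7 genes in RefSeq on GRCm38.p6, and they are shown because these genes fell together with clone size and because FOXO, KLF and TCF/LEF factors are known regulators of resting T cells. The motifs GTAAACA (FOXO), CACCC (KLF) and CTTTGA (TCF/LEF) were searched on both strands, with capitals marking each match. The windows are chr11:99040994-99041293 (plus strand), chr11:3330481-3330780 (plus strand), chr5:100572156-100572455 (minus strand, the first of 2 windows) and chr2:59484403-59484702 (plus strand), in this order:
Igfbp4: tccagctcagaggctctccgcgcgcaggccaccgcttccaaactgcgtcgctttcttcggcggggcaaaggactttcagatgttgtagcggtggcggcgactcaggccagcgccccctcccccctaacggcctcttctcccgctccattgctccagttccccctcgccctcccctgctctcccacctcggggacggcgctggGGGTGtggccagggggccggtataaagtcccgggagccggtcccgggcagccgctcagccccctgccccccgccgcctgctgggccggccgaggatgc
Pik3ip1: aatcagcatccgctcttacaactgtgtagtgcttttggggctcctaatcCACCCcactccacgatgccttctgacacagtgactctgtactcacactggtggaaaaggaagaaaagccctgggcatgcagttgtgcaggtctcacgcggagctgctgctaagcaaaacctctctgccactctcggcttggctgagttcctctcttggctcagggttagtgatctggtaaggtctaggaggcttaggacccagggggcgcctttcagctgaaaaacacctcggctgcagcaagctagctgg
Plac8: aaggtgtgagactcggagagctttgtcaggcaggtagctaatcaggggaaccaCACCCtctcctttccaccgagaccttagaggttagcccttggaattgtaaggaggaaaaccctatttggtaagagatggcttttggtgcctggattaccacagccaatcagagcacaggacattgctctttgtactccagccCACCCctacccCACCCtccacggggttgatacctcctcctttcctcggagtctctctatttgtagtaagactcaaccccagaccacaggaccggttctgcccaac
Dapl1: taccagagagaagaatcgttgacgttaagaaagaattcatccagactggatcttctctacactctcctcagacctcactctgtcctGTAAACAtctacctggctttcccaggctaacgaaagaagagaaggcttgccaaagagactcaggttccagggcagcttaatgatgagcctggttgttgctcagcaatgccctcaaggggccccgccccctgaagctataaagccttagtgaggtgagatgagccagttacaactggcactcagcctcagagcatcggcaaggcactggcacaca

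The FOXO letters occurred once, in Dapl1 at 164 bases before the start, and in 1199 of 32851 windows of the same length (3.65%). The KLF letters occurred in Igfbp4, Pik3ip1 and Plac8 and in 18895 of 32851 windows (57.5%). The TCF/LEF letters occurred in none of the 4 windows and in 5257 of 32851 (16.0%). A match describes the letters in the window and is not a binding site.

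Across the 3 populations, every described gene was higher in both islet IGRP- libraries, and in both spleen IGRP+ libraries, than in either islet IGRP+ library. Levels are given as CPM from summed UMIs, and they are not compared between genes. In edgeR's test across all genes, 1.04% of 11277 genes were called lower in islet IGRP+ than in islet IGRP- cells, a contrast in which the genes' own count of 7 of 7 follows from their choice. In spleen IGRP+ against islet IGRP+ cells 12.9% of all genes were called higher. Against islet IGRP- cells 12.2% were called lower and 10.2% higher in the spleen, and 3 and 2 of the 7 genes were. Each of these spleen contrasts holds a population on which the genes were chosen, so the counts of the 7 genes are a description and no test. The share of all genes whose populations do not overlap was not counted. With 2 libraries per population, such a separation is therefore a description and not a trait of these genes. The 3 contrasts between populations share libraries.

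Igfbp4 had the widest gap. It stood at 79.0 and 89.2 CPM in islet IGRP- Rounds 1 and 2, at 0.680 and 0.125 CPM in islet IGRP+ and at 38.1 and 23.0 CPM in spleen IGRP+. The islet IGRP+ values rested on 4 UMIs in 1204 cells and 1 UMI in 1598 cells, with exact 95% Poisson intervals of 0.185 to 1.74 and 0.00317 to 0.698 CPM. The fitted log2 difference of islet IGRP+ from islet IGRP- was -7.83 (SE 0.64, n = 2 and 2). Intervals on counts and shares cover counting error only.

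Tdrp stood at 41.7 and 49.0 CPM in islet IGRP-, 3.91 and 4.14 CPM in islet IGRP+ and 18.3 and 16.5 CPM in spleen IGRP+. Plac8 had the same order, with 49.8 and 76.1 CPM, 1.87 and 3.63 CPM, and 18.8 and 14.2 CPM. For Igfbp4, Tdrp and Plac8 the populations did not overlap, with islet IGRP- highest and spleen IGRP+ between. The fitted log2 differences of spleen IGRP+ from islet IGRP- were -1.52 (SE 0.40), -1.46 (SE 0.20) and -1.99 (SE 0.32) for Igfbp4, Tdrp and Plac8.

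Dapl1 stood at 40.3 and 44.7 CPM in islet IGRP-, 5.10 and 3.51 CPM in islet IGRP+ and 72.5 and 71.5 CPM in spleen IGRP+. Kbtbd11 stood at 21.7 and 25.6 CPM, 4.59 and 4.01 CPM, and 71.4 and 79.9 CPM in the same order. Gm2682, the non-coding RNA, had its highest level in the spleen, with 33.1 and 32.2 CPM in islet IGRP-, 7.65 and 8.14 CPM in islet IGRP+ and 159.2 and 210.6 CPM in spleen IGRP+. For Dapl1, Kbtbd11 and Gm2682 the populations did not overlap and spleen IGRP+ was highest, an order not counted over all genes. The fitted log2 differences of spleen IGRP+ over islet IGRP- were 0.67 (SE 0.23), 1.58 (SE 0.18) and 2.39 (SE 0.16).

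Pik3ip1, the PI3K inhibitor, stood at 19.4 and 24.3 CPM in islet IGRP-, 1.02 and 1.63 CPM in islet IGRP+ and 24.04 and 24.5 CPM in spleen IGRP+. Its islet IGRP- and spleen IGRP+ values overlapped, with a log2 difference of 0.06 (SE 0.19). In islet IGRP+ against islet IGRP- cells the fitted log2 difference was smallest for Gm2682 (-2.06, SE 0.16), and the 5 genes other than Gm2682 and Igfbp4 lay between -4.50 and -2.47. Depth and the number of clones also differed among the populations, and in summed libraries fewer cells with a transcript cannot be told apart from less RNA per cell.

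**Figure D1:**
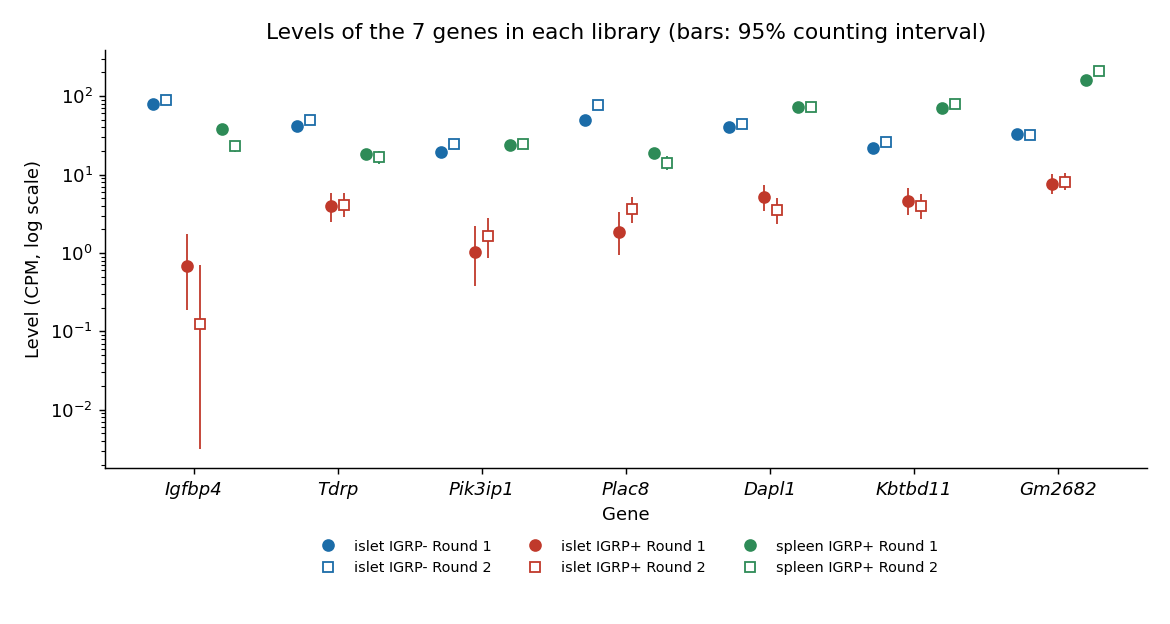
Level of each gene in CPM (log axis) in the 6 libraries, with 1 point per library coloured by population, filled for Round 1 and open for Round 2, and bars of the 95% counting interval. Both islet IGRP+ points of every gene lie under all points of the other populations, and Gm2682 reaches 159.2 and 210.6 CPM in the spleen.

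Detection was compared after each cell had been thinned to 1000 UMIs. Igfbp4 was detected in 5.95% and 7.59% of islet IGRP- cells, and in 2.09% and 1.22% of spleen IGRP+ cells. In islet IGRP+ cells it was found in 1 of 1178 thinned cells (0.0849%, exact binomial 95% interval 0.00215% to 0.472%) in Round 1, and without thinning in 0.166% and 0.0626% of cells. Gm2682 was detected in 3.63% and 3.39% of islet IGRP- cells, 1.02% and 0.965% of islet IGRP+ cells and 15.4% and 19.0% of spleen IGRP+ cells, against 12.8% and 12.4%, 3.41% and 3.57%, and 32.9% and 42.4% without thinning. The other 5 genes were detected in 2.13% to 5.48% of islet IGRP- cells, 0.0643% to 1.02% of islet IGRP+ cells and 0.885% to 7.21% of spleen IGRP+ cells. Kbtbd11 had the highest of these spleen shares, at 6.05% and 7.21%. The order of the populations by detection was the order by CPM for every gene whose populations did not overlap, with the exception of Dapl1, whose thinned share was 3.91% and 3.97% in islet IGRP- and 4.14% and 3.54% in spleen IGRP+. At this depth, 96.8% and 97.6% of islet IGRP+ cells had a UMI of none of the 7 genes, against 77.8% and 74.7% of islet IGRP- and 72.7% and 70.1% of spleen IGRP+ cells.

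Clone size was then taken from the paired T-cell receptor libraries. A clone was a pair of 1 productive α and 1 productive β chain with the same CDR3 nucleotides, counted within a library, and cells were called singlets (clone of 1 cell) or expanded (2 or more cells). Islet IGRP- held 1389 and 2959 singlets against 1603 and 2524 expanded cells in Rounds 1 and 2, and spleen IGRP+ held 252 and 162 singlets against 1408 and 1506 expanded cells. Islet IGRP+ held 12 and 14 singlets against 661 and 1177 expanded cells, too few for a comparison by clone size. Of the kept cells, 46.5% and 61.4% in islet IGRP- and 47.1% and 68.6% in spleen IGRP+ held such a pair. In islet IGRP+ the shares were 55.9% and 74.5%. The other cells had no clone class, so some singlets may belong to larger clones. Islet IGRP- cells had also been one side of the contrast that picked the genes, whereas the spleen had not.

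In islet IGRP- cells all 7 genes were lower in expanded cells, against 21.3% of the 10841 genes tested called lower (edgeR's quasi-likelihood test with Benjamini-Hochberg adjustment, with library as a term). Igfbp4 fell from 136.1 and 157.2 CPM in singlets to 1.27 and 1.88 CPM in expanded cells, a log2 change of -6.64 (SE 0.16, edgeR adjusted p = 2.81e-26, lower in 2 of 2 libraries). The ratio of singlet to expanded level was 107 (95% counting interval 59.7 to 216) in Round 1 and 83.6 (56.0 to 131) in Round 2. Only 6 of 237 expanded clones in Round 1 and 15 of 401 in Round 2 held any Igfbp4 UMI.

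Tdrp fell from 70.7 and 86.2 CPM to 6.22 and 6.81 CPM, with a log2 change of -3.75 (SE 0.12, edgeR adjusted p = 3.65e-23). Pik3ip1 fell from 39.4 and 41.0 CPM to 2.53 and 4.07 CPM, with a log2 change of -3.70 (SE 0.15, edgeR adjusted p = 3.61e-20). Dapl1 fell from 80.9 and 79.1 CPM to 10.2 and 11.3 CPM, with a log2 change of -3.03 (SE 0.13, edgeR adjusted p = 2.92e-19). For these 3 genes the ratio of singlet to expanded level lay between 7.01 and 15.6 in single rounds.

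Plac8 fell from 87.2 and 111 CPM to 10.7 and 32.1 CPM (log2 change -2.36, SE 0.14, edgeR adjusted p = 4.64e-16), with the largest gap between rounds among expanded cells. In Round 2, 82 of 401 expanded clones held Plac8 UMIs, the clone with most (6 cells) held 13.7% of them and the first 5 clones held 40.0%. Without that clone the Round 2 level was 27.9 CPM, still above the 8.69 CPM of Round 1 without its own top clone. Kbtbd11 fell from 35.8 and 38.1 CPM to 8.86 and 11.1 CPM (log2 change -2.02, SE 0.13, edgeR adjusted p = 2.72e-15). Gm2682 had the smallest change, from 52.7 and 45.1 CPM to 15.9 and 20.1 CPM (log2 change -1.54, SE 0.10, edgeR adjusted p = 2.12e-14). All 7 genes were also called lower without library as a term, where 3.74% of all genes were.

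After thinning, Igfbp4 was detected in 9.45% and 12.6% of islet IGRP- singlets and in 0.0625% and 0.198% of expanded cells. Gm2682 was detected in 5.84% and 4.57% of singlets and in 1.62% and 2.30% of expanded cells. Singlets had fewer UMIs than expanded cells, with medians of 3811 against 4595 in Round 1 and 3731 against 4297.5 in Round 2, so the expanded cells were the deeper ones. At least 2 of the 7 genes were found in 7.58% and 9.16% of thinned singlets and in 0.250% and 0.555% of thinned expanded cells. In clones of 10 or more cells, taken as the reference for free RNA within the same library, the thinned shares were 0.113% and 0.137% for Igfbp4 and at most 1.71% for any of the genes. The B-cell list moved in the same direction, at 81.2 and 57.2 CPM in singlets against 23.5 and 21.9 CPM in expanded cells, of which Ighm made up 74.5 and 51.5 CPM and 20.8 and 18.7 CPM. The stroma and endothelium list, mostly Pecam1, stood at 33.8 and 35.3 CPM against 8.98 and 7.75 CPM. The exocrine list stood at 127 and 672 CPM in singlets against 105 and 333 CPM in expanded cells. The myeloid list moved in the opposite direction, at 108 and 134 CPM in singlets against 186 and 227 CPM in expanded cells. The part of these lists in the results was not tested.

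The levels of single clone size classes in islet IGRP- are given as a description, with no test of a difference between genes. Igfbp4 was at 2.24 and 5.66 CPM already in clones of 2 cells, 0.347 and 1.41 CPM in clones of 3 to 9 cells, and 1.63 and 1.31 CPM in clones of 10 or more. Tdrp likewise stood at 5.60 and 15.1 CPM in clones of 2 cells and at 5.09 and 5.12 CPM in clones of 10 or more. For both genes most of the difference lay between clones of 1 and 2 cells.

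Pik3ip1 went from 39.4 and 41.0 CPM in singlets to 7.85 and 10.1 CPM in clones of 2 and 2.44 and 2.49 CPM in clones of 10 or more, and Kbtbd11 from 35.8 and 38.1 CPM to 13.5 and 20.1 CPM and to 7.74 CPM in both rounds. In CPM, most of the difference of these genes also lay between clones of 1 and 2 cells. As a fold change, the Round 2 step of Kbtbd11 from clones of 2 to clones of 10 or more was the larger. Dapl1 went from 80.9 and 79.1 CPM in singlets to 20.2 and 42.8 CPM in clones of 2, 14.2 and 15.2 CPM in clones of 3 to 9, and 6.11 and 2.89 CPM in clones of 10 or more. Its drop from 1 to 2 cells was the larger part of the difference in Round 1 and not in Round 2. Gm2682 went from 52.7 and 45.1 CPM to 33.6 and 42.1 CPM, 18.0 and 23.1 CPM, and 11.4 and 14.03 CPM. Plac8 in Round 2 did not fall at each step, with 35.2 CPM in clones of 2 cells, 77.7 CPM in clones of 3 to 9 and 10.2 CPM in larger clones. Over the 7 genes and 2 rounds, the level fell at each of the steps in 10 of 14 series, a description without a test.

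**Figure D2:**
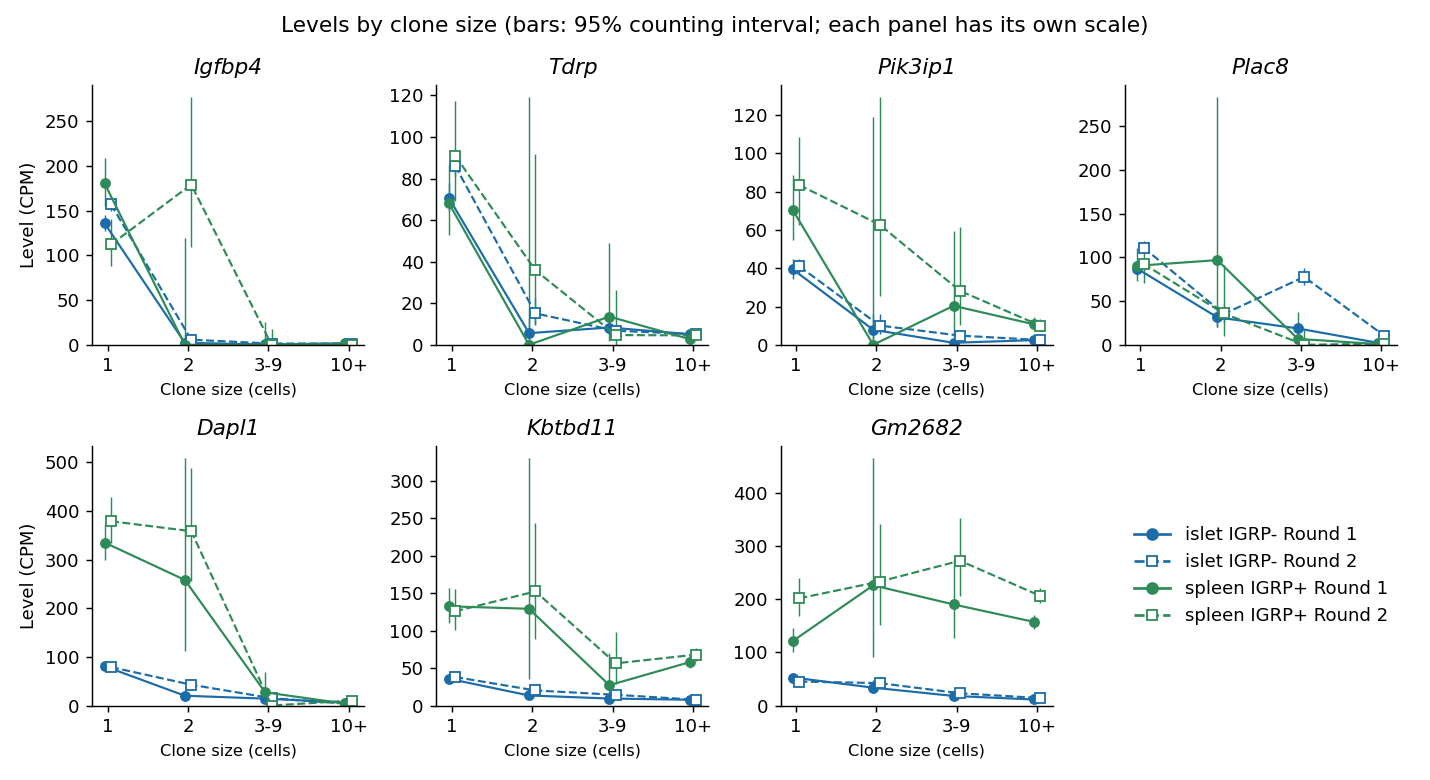
Level of each gene in CPM (y axis, linear, with its own scale in each panel) by clone size class in cells (x axis), with 1 line per islet IGRP- and spleen IGRP+ library and bars of the 95% counting interval. Igfbp4 drops between clones of 1 and 2 cells in both islet IGRP- rounds, and Gm2682 stays between 121.5 and 272.3 CPM across the spleen classes.

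In the spleen, 6 of the 7 genes were lower in expanded than in singlet cells, against 8.43% of all genes tested called lower by edgeR's quasi-likelihood test with Benjamini-Hochberg adjustment. Igfbp4 fell from 180.7 and 112.2 CPM to 0.785 and 4.85 CPM (log2 change -5.88, SE 0.27, edgeR adjusted p = 2.60e-18). The Round 1 value rested on 3 UMIs, and in Round 2 1 clone of 2 cells held 57.1% of the 21 UMIs. Dapl1 fell from 335.3 and 379.1 CPM to 6.80 and 18.7 CPM (log2 change -5.04, SE 0.17, edgeR adjusted p = 4.26e-22). Plac8 fell from 90.3 and 92.5 CPM to 1.83 and 2.08 CPM (log2 change -5.77, SE 0.37, edgeR adjusted p = 2.37e-14).

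Tdrp fell from 68.3 and 91.0 CPM to 3.14 and 5.32 CPM (log2 change -4.46, SE 0.24, edgeR adjusted p = 1.62e-16). Pik3ip1 fell from 70.3 and 83.4 CPM to 10.99 and 12.3 CPM (log2 change -2.96, SE 0.21, edgeR adjusted p = 2.08e-13). Kbtbd11 fell by less, from 132.5 and 125.9 CPM to 57.3 and 69.6 CPM (log2 change -1.29, SE 0.14, edgeR adjusted p = 7.31e-09). With each clone counted as 1 cell, the Kbtbd11 change was -0.75 and was no longer called (edgeR adjusted p = 0.193).

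Gm2682 was the exception. It stood at 121.5 and 201.7 CPM in spleen singlets and at 159.1 and 210.1 CPM in expanded cells, with a log2 change of -0.02 (SE 0.12, edgeR adjusted p = 0.945). The ratio of singlet to expanded level was 0.763 (95% counting interval 0.623 to 0.929) in Round 1 and 0.960 (0.794 to 1.15) in Round 2. Its thinned share was 11.6% and 24.1% in singlets and 14.3% and 18.1% in expanded cells, so neither order held in both rounds. Kbtbd11 was detected in 13.1% and 14.2% of thinned spleen singlets and 5.00% and 7.35% of expanded cells, and Dapl1 in 22.3% and 25.9% against 0.643% and 1.07%.

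The spleen clones of 2 cells held only 12 and 36 cells, and the level fell at each step in 3 of 14 series. In these clones Dapl1 stood at 258.3 and 358.5 CPM, near the singlets. In clones of 3 to 9 cells it stood at 27.2 CPM in Round 1. In Round 2 it had 0 UMIs in 74 cells, where 3 UMIs would be 14.1 CPM. Kbtbd11 likewise stood at 129.2 and 152.4 CPM in clones of 2, 27.2 and 56.3 CPM in clones of 3 to 9, and 57.9 and 68.0 CPM in clones of 10 or more. For Dapl1 and Kbtbd11 most of the difference lay between clones of 2 and of 3 to 9 cells. Receptor usage changed at the same step, with the Vα gene TRAV16N in 33.3% and 38.9% of cells in clones of 2 and in 94.3% and 89.2% in clones of 3 to 9, and the part of clone size and of receptor usage in this step was not tested.

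Singlets were the deeper cells in the spleen, with median depths of 3856.5 against 2612 UMIs in Round 1 and 4138 against 2838.5 in Round 2. The B-cell list stood at 214 and 199 CPM in spleen singlets and 42.9 and 42.5 CPM in expanded cells, with 3 of its 5 genes at 0 in each. The stroma and endothelium list fell likewise, from 25.1 and 47.0 CPM to 9.42 and 12.02 CPM, with 4 of its 5 genes at 0 in singlets. The myeloid list rose, from 130 and 173 CPM to 215 and 213 CPM, and the part of these lists was not tested. Spleen singlets also differed from expanded cells in receptor usage, since TRAV16N was carried by 19.4% and 22.8% of singlets and by 99.2% and 98.01% of expanded cells. The study reported TRAV16N in nearly all spleen tetramer-positive cells, so most singlets here lack the Vα gene it describes. Whether those singlets share the specificity of the expanded cells was not tested. Among singlets, Igfbp4 stood at 177.6 and 154.0 CPM in cells with TRAV16N and at 181.4 and 99.97 CPM in cells with another Vα gene. The Round 1 and 2 levels of Dapl1 in these singlets were 409.1 and 535.8 CPM with TRAV16N and 318.3 and 333.2 CPM without it. Among expanded cells, the 1397 and 1476 with TRAV16N had Igfbp4 at 0.791 and 0.708 CPM and Dapl1 at 6.06 and 11.1 CPM. The 30 expanded cells of Round 2 with another Vα gene held 18 of the 21 Igfbp4 UMIs and stood at 200.8 CPM for Igfbp4 and 379.3 CPM for Dapl1, against 112.2 and 379.1 CPM in the singlets of that round. The 11 such cells of Round 1 held 0 Igfbp4 UMIs, where 3 UMIs would be 107.7 CPM, and 3 Dapl1 UMIs. With TRAV16N cells only, an alternative chosen after seeing the data, the same number of genes, 6, was lower in expanded spleen cells, with log2 changes of -7.82 for Igfbp4 and -5.94 for Dapl1 (edgeR adjusted p = 2.42e-10 and 5.24e-12). Its spleen singlets were only 49 and 37 cells. The Igfbp4 change rested on 33 and 23 UMIs in them against 3 and 3 in expanded cells.

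The clone size change itself was compared between islet IGRP- and spleen IGRP+ cells. These differ in tissue and in tetramer sort, so the parts of both cannot be told apart. In the spleen, receptor usage also changed with clone size. The clone size change differed for 4 of the 7 genes, against 9.15% of all genes tested (contrast of both clone size terms in the same edgeR quasi-likelihood fit with Benjamini-Hochberg adjustment). Plac8 and Dapl1 fell less in islet IGRP- than in spleen cells, by differences of 3.41 (SE 0.44, edgeR adjusted p = 8.04e-07) and 2.01 (SE 0.24, edgeR adjusted p = 1.70e-07) on the log2 scale. Gm2682 fell more in islet IGRP- cells, by a difference of -1.52 (SE 0.15, edgeR adjusted p = 7.36e-09), and so did Kbtbd11 (-0.73, SE 0.19, edgeR adjusted p = 0.00924). For Pik3ip1 (-0.73, SE 0.27, edgeR adjusted p = 0.0914), Tdrp (0.71, SE 0.29, edgeR adjusted p = 0.137) and Igfbp4 (-0.76, SE 0.50, edgeR adjusted p = 0.403) no difference passed the test. Without library as a term none of the 7 differences was called, with adjusted p of 0.171 to 0.461 for the 4 genes. With TRAV16N cells only 2 of the 4 stayed called, Dapl1 (2.85, edgeR adjusted p = 0.00328) and Gm2682 (-1.67, edgeR adjusted p = 0.0361), and Plac8 (2.90, edgeR adjusted p = 0.0508) and Kbtbd11 (-1.06, edgeR adjusted p = 0.351) did not.

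The differences rested on the 2 residual degrees of freedom left by 8 sums and on a spread that the edgeR fit shares over all genes. With each clone counted as 1 cell, Igfbp4 alone was called (-3.02, edgeR adjusted p = 0.0239), and Plac8 and Gm2682 stood at 1.39 and -0.98 (edgeR adjusted p = 0.462 and 0.0765). The Igfbp4 difference was called without spleen IGRP+ Round 1 (-1.97, edgeR adjusted p = 0.00793) and had the opposite sign without spleen IGRP+ Round 2 (1.44, edgeR adjusted p = 0.296). The Kbtbd11 difference was not called without islet IGRP- Round 1 (edgeR adjusted p = 0.0885) or spleen IGRP+ Round 2 (edgeR adjusted p = 0.157).

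**Figure D3:**
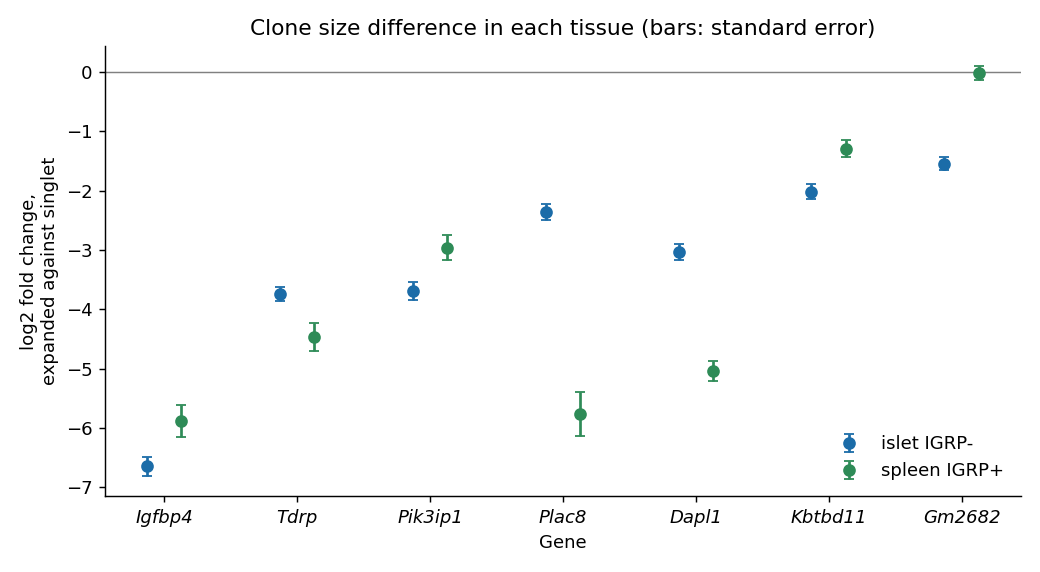
Log2 change of each gene from singlet to expanded cells (y axis) by gene (x axis) in islet IGRP- (blue) and spleen IGRP+ (green), with points at edgeR's estimate and bars of 1 standard error. Gm2682 sits at -1.54 in islet IGRP- and at -0.02 in the spleen, and Plac8 at -2.36 and -5.77.

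Large clones gave a view of the genes within single clones. There were 93 clones of 10 or more cells in islet IGRP-, 36 in islet IGRP+ and 46 in spleen IGRP+. Igfbp4 had no UMI in 82 of 93, 35 of 36 and 44 of 46 of them. Gm2682 had a UMI in every large spleen clone, with a lowest, median and highest level of 47.2, 175.2 and 318.1 CPM, whereas the islet IGRP- clones ran from 0 to 117.1 CPM with a median of 11.8 CPM and the islet IGRP+ clones from 0 to 45.2 CPM with a median of 5.02 CPM. Kbtbd11 had a UMI in 44 of 46 spleen clones, with a median of 61.9 CPM, against medians of 1.86 and 0.925 CPM in islet IGRP- and islet IGRP+. Pik3ip1 had a median of 9.02 CPM in large spleen clones and 0 in both islet populations.

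Clones found with at least 5 cells in both islet IGRP+ and spleen IGRP+ of the same round allowed the tissues to be set side by side in cells with the same receptor, 19 clones in Round 1 and 25 in Round 2. Gm2682 was higher in the spleen in 19 of 19 and 25 of 25 clones, at 5.43 CPM in the islets against 156.5 CPM in the spleen in Round 1 and 7.94 against 206.2 CPM in Round 2. Kbtbd11 was higher in 19 of 19 and 24 of 25, at 4.57 against 58.5 CPM and 2.87 against 68.0 CPM. Pik3ip1 was higher in 13 and lower in 0 clones of Round 1, and higher in 18 and lower in 3 clones of Round 2, at 0.571 against 10.6 CPM and 1.52 against 10.9 CPM. Tdrp differed little in level, at 2.28 against 2.78 CPM and 4.23 against 4.33 CPM, with 5 clones higher and 5 lower in Round 1 and 6 higher and 10 lower in Round 2. Plac8 ran the other way from its level over all cells, at 1.14 CPM in the islets against 0.278 CPM in the spleen in Round 1 (1 clone higher and 2 lower in the spleen) and 3.04 against 1.27 CPM in Round 2 (2 higher and 7 lower), on 1 to 18 UMIs per tissue. Dapl1 stood at 1.14 against 2.51 CPM and 2.70 against 10.2 CPM, and Igfbp4 had 0 to 3 UMIs per tissue. Clones of 1 round come from the same pool of mice and are not replicates. The genes were chosen for a low level in islet IGRP+ cells, the islet side here, so a higher spleen level can follow in part from that choice. The share of all genes higher in the spleen in these clones was not counted.

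**Figure D4:**
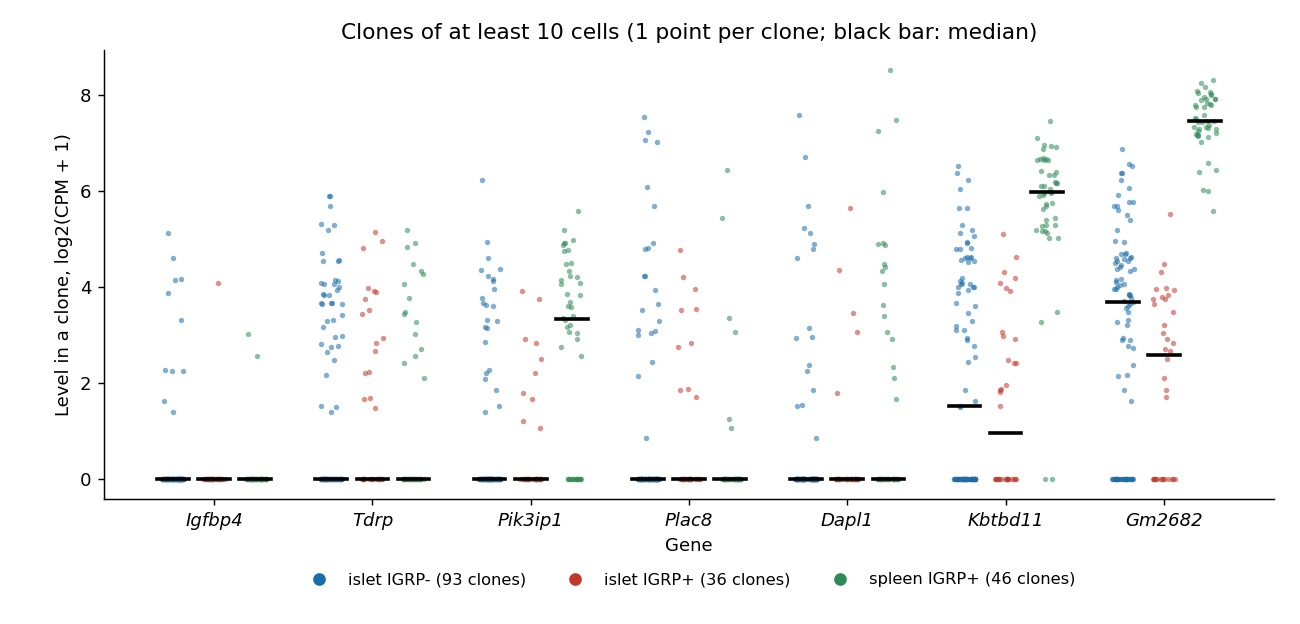
Level of each of the 7 genes as log2(CPM + 1) in each clone of 10 or more cells, with 1 point per clone coloured by population and a black bar at the median. All 46 spleen clones have Gm2682 above 0, at a median of 175.2 CPM, and the medians of the 93 islet IGRP- and 36 islet IGRP+ clones are 11.8 and 5.02 CPM.

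The gap between tetramer-negative and tetramer-positive islet cells was smaller among expanded clones, and smaller again among those of 10 or more cells, for each of the 7 genes by the ratio itself. Between all cells and expanded clones the intervals overlap for Igfbp4 and Gm2682. Between expanded clones and those of 10 or more cells they overlap for each gene but Plac8. Over both rounds, the ratio of the islet IGRP- to the islet IGRP+ level of Tdrp was 11.4 (95% counting interval 8.73 to 15.1) over all cells and 1.41 (0.912 to 2.21) over clones of 10 or more cells. The Dapl1 ratio went from 10.2 (7.90 to 13.5) over all cells to 4.75 (3.09 to 7.64) over all expanded clones and 1.89 (1.11 to 3.34) over those of 10 or more cells, and the Gm2682 ratio from 4.11 (3.39 to 5.02) to 2.60 (2.02 to 3.40) and 1.85 (1.38 to 2.51). The Plac8 ratio was 22.6 (16.5 to 31.6) over all cells, 9.83 (6.53 to 15.5) over expanded clones and 2.81 (1.76 to 4.66) over large clones, and the Kbtbd11 ratio 5.64 (4.35 to 7.44), 2.77 (1.95 to 4.05) and 2.27 (1.503 to 3.52). Over expanded clones the Tdrp ratio was 1.84 (1.27 to 2.73). Igfbp4 in large islet clones rested on 18 UMIs against 1, with a ratio of 13.1 (2.06 to 545). These ratios use the contrast that picked the genes and are a description.

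The genes were also set beside lists of genes of the same pathways. These lists hold genes that the study discussed in these samples, among them Klf2, Tcf7, Il7r, Ccr7, Pdcd1, Tigit, Gzmb and Havcr2, so they are not independent evidence. Of the 27 tested genes of a quiescence list of 28, 22 were lower and 0 higher in expanded islet IGRP- cells, beside 21.3% lower and 24.5% higher of all genes, with a median log2 change of -1.0005 beside -0.005 over all genes. Without library as a term 14 were lower, beside 3.74% of all genes. Lef1 fell by 3.70 on the log2 scale and Il6ra, the receptor of interleukin 6, by 2.93 (edgeR adjusted p = 4.84e-27 and 1.64e-17).

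In expanded spleen cells 14 of the 27 were lower and 2 higher, beside 8.43% and 8.52% of all genes, with a median of -0.44 (7 lower and 0 higher without library as a term, where 2.02% of all genes were lower). Il6ra fell by 4.10 and Ccr7, a chemokine receptor of lymphoid homing, by 2.87, whereas Ets1 and Klf3 rose by 0.34 and 0.32 (edgeR adjusted p = 3.94e-16, 7.04e-21, 0.00560 and 0.0382). Klf2, named after its values were seen, stood at 561.1 and 1090.3 CPM in spleen singlets and at 769.3 and 1389.2 CPM in expanded cells, against 683.4 and 884.6 CPM and 153.5 and 221.2 CPM in islet IGRP- cells.

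Between populations, 7 of the 27 quiescence genes were called lower in islet IGRP+ than in islet IGRP- cells and 0 higher, with a median log2 difference of -0.71. With round as a block 23 were called lower, where 16.1% of all genes were, and none was called without islet IGRP+ Round 1 or without islet IGRP+ Round 2. Il7r differed by -3.74 and S1pr1, the receptor for egress from tissue, by -3.38 (edgeR adjusted p = 0.0122 and 0.00647). Il7r stood at 186.7 and 191.8 CPM in islet IGRP- and at 9.86 and 19.0 CPM in islet IGRP+. In spleen IGRP+ against islet IGRP+ cells 14 of the 27 were higher and 1, Tob2, lower, against 12.9% of all genes called higher and 13.7% lower. With round as a block 16 were higher and 5 lower, where 27.1% and 28.0% of all genes were. Against islet IGRP- cells 5 were lower and 6 higher in the spleen (12 and 10 with round as a block, where 29.2% and 26.3% of all genes were), with a median of 0.09, where 12.2% and 10.2% of all genes were called lower and higher. Ccr7 fell by 2.62 and Klf3 rose by 1.25 on the log2 scale (edgeR adjusted p = 0.0105 and 0.00569).

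The PI3K list, chosen for Pik3ip1, did not move one way. Of its 14 tested genes, 2 were lower and 6 higher in expanded islet IGRP- cells, and 2 lower and 1 higher in expanded spleen cells, beside 21.3% lower and 24.5% higher of all genes in islet IGRP- and 8.43% and 8.52% in the spleen. None of the 14 was called in either tissue without library as a term. Pik3cd, the catalytic subunit of lymphocytes, fell by 0.80 in islet IGRP- and by 0.48 in spleen cells, and Akt1, the kinase downstream, rose by 0.88 and 0.71 (edgeR adjusted p = 9.56e-11, 0.00133, 4.50e-09 and 0.0176). Inpp4b, a phosphatase of PI3K products, rose by 0.65 in islet IGRP- and fell by 0.78 in spleen cells (edgeR adjusted p = 1.54e-08 and 7.21e-06). Between islet populations none of the 14 was called (4 lower with round as a block), and spleen IGRP+ differed from islet IGRP+ in 2 lower and 2 higher genes, beside 13.7% lower and 12.9% higher of all genes (5 and 3 with the block, beside 28.0% and 27.1%).

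Of the insulin-like growth factor list of 12 genes, chosen for Igfbp4, 4 could be tested between populations and 3 by clone size. Igfbp1, Igfbp2, Igfbp3 and the protease gene Pappa, which cleaves Igfbp4, had 0 UMIs in all 6 libraries. Igfbp5 had 0 to 2 UMIs, Igfbp6 4 to 28 and Igfbp7 0 to 59 per library. The growth factor genes Igf1 and Igf2 had 0 to 4 UMIs per library. Igf1r, a receptor of these factors, stood at 7.65 and 8.15 CPM in islet IGRP-, 1.53 and 2.38 CPM in islet IGRP+ and 1.67 and 0.869 CPM in spleen IGRP+. Igf2r fell by 0.37 in expanded islet IGRP- cells and rose by 1.13 in expanded spleen cells (edgeR adjusted p = 0.00152 and 5.76e-06).

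The activation list ran the other way by clone size. Of its 16 genes, 15 were higher and 0 lower in expanded islet IGRP- cells, and 13 higher and 1 lower in expanded spleen cells with medians of 1.81 and 2.10, against 24.5% and 8.52% of all genes called higher. Without library as a term 14 and 8 were higher, where 4.73% and 2.22% of all genes were. Havcr2, an inhibitory receptor, rose by 3.07, the transcription factor gene Prdm1 by 2.94 and the proliferation marker Mki67 by 2.65 in islet IGRP- cells (edgeR adjusted p = 3.96e-17, 1.12e-17 and 3.62e-18). In the spleen Tigit rose by 3.77, Gzmb by 3.34 and Ifng by 2.66 (edgeR adjusted p = 1.05e-14, 2.41e-07 and 8.95e-17). Between islet populations 1 of the 16 was called, Pdcd1, higher by 1.18 in islet IGRP+ (edgeR adjusted p = 0.0445), where 0.151% of all genes were called higher. With round as a block 13 of the 16 were higher, where 14.4% of all genes were, and none was called when any 1 of the 6 libraries was left out.

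Genes with the most similar profile were sought over 20 profiles of library and clone size class by Pearson's r of log2(CPM + 10) among 5607 genes, as a description over profiles that share libraries. Among the 2 nearest genes were Il6ra for Igfbp4 (0.92) and for Tdrp (0.87), and A930005H10Rik for Pik3ip1 (0.93). For Plac8 the nearest were Foxp1 (0.85) and 4930523C07Rik (0.85), and for Dapl1 Foxp1 (0.92) and Rps14 (0.90). Kbtbd11 was nearest to Evl (0.95) and Bcl9l (0.95), and Gm2682 to Chd3 (0.98) and Ccnd3 (0.97). Of the 14 places, 2 for each gene, 5 kept their name with log2(CPM + 1). Among the described genes themselves, r was 0.94 for Igfbp4 and Tdrp, 0.91 for Kbtbd11 and Gm2682 and lowest, 0.28, for Plac8 and Gm2682.

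Cells were finally split by a UMI of single marker genes, chosen after their values were seen and given without a test. In islet IGRP- cells with a Pdcd1 UMI, Igfbp4 stood at 9.44 and 14.6 CPM, against 133.6 and 136.0 CPM without, and the median depth was 4390 against 3616 UMIs in Round 1. Gm2682 stood at 24.2 and 23.9 CPM with a Pdcd1 UMI and at 40.1 and 37.4 CPM without. The 446 and 478 islet IGRP- cells with a UMI of the proliferation marker Mki67 had Igfbp4 at 5.05 and 12.1 CPM, against 90.0 and 96.9 CPM in the cells without, and in Round 1 their median depth was 8393.5 against 3706 UMIs. Dapl1 stood at 18.9 CPM with and 43.4 CPM without an Mki67 UMI in Round 1, and at 44.1 and 44.7 CPM in Round 2. In spleen IGRP+ cells Gm2682 stood at 136.6 and 218.4 CPM with an Mki67 UMI, in 64 and 77 cells, and at 159.7 and 210.4 CPM without, lower with the UMI in Round 1 and higher in Round 2.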

How the data were processed

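Single-cell 5′ expression and T-cell receptor libraries were made by the authors from sorted CD8 T cells, 2 rounds for each of 3 populations. Per the file headers, the deposited values are raw UMI counts per gene and cell made with Cell Ranger 5.0.1 on mm10, and the receptor files give the productive chains of each cell. Cells with under 5% mitochondrial UMIs and with 200 to 3500 (islet) or 200 to 2000 (spleen) genes were kept, as in the study. No doublet caller was run, doublets being limited only by the upper gene limit and by the demand for exactly 1 α and 1 β chain, and the study's exocrine cluster was not removed. The members and lists were chosen with earlier results of these data known.

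Counts were summed per library, or per library and clone class, and CPM was taken over all UMIs of those cells, with exact Poisson intervals at 95%. Detection was counted after thinning each cell to 1000 UMIs (seed 1), with Clopper-Pearson intervals. edgeR 4.0.16 (R 4.3.3) was fitted by quasi-likelihood with TMM scaling and filterByExpr, on all 6 libraries for populations and on 8 sums of islet IGRP- and spleen IGRP+ with library as a term for clone size. P-values were adjusted by Benjamini-Hochberg over all genes tested, with a threshold of 0.05. The rounds pair the populations, since cells of 1 round came from the same pool of mice. Deviations from the population means correlated between populations at 0.804 to 0.841 over 4270 genes. The main fit between populations held no term for round, so its standard errors and calls leave this pairing out. Round as a block was an alternative. The named genes were the 7 members and, per list and direction, up to 3 called genes of at least 20 CPM with the largest change. The values of 1 gene that the rule named are not reported here. The fits were also run on simulated counts that held planted changes and no effect of library or round. That run cannot speak to the pairing of the rounds. Alternatives covered DESeq2 1.42.0, its size factors, the filters, the clone definition, the block and each library left out. Gene positions came from GENCODE M21, matched for 32158 of 32285 identifiers. Sums and intervals were computed with scipy 1.17.1 and pandas 2.3.3 in Python 3.11.15, and figures were drawn with matplotlib 3.10.9.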

Additional observations from a re-analysis of the deposited data

Results flagged for a closer look

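The change from singlet to expanded cells differed between islet IGRP- and spleen IGRP+ for 4 genes, by a test of the difference itself in edgeR's quasi-likelihood fit with Benjamini-Hochberg adjustment. The islet IGRP- minus spleen IGRP+ difference in log2 change was 3.41 for Plac8 (edgeR adjusted p = 8.04e-07) and 2.01 for Dapl1 (edgeR adjusted p = 1.70e-07), and -0.73 for Kbtbd11 (edgeR adjusted p = 0.00924) and -1.52 for Gm2682 (edgeR adjusted p = 7.36e-09). None of the 4 was called without library as a term or with each clone counted as 1 cell. With TRAV16N cells only, Dapl1 and Gm2682 were called and Plac8 and Kbtbd11 were not.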

How the results depend on the processing

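All 7 genes stayed lower in expanded islet IGRP- cells under all 13 alternatives, with adjusted p of at most 0.0133 (Plac8). Of 175 values of single genes by clone size, 170 kept direction and call, 1 lost its call and 4 changed sign. Of 252 values between populations, 232 stayed within the spread between rounds around the main value and 20 moved beyond it. A change of sign was counted there only where the main value exceeded that spread, and none was. These values include the contrast that picked the genes. The sign changes by clone size concern Gm2682 in the spleen, at 0.021 without the filter on low counts, 0.0012 with 1 cell per clone, 0.17 with TRAV16N cells only (an alternative chosen after seeing the data) and, with 1 library left out, from -0.10 to 0.10. The islet IGRP- minus spleen IGRP+ difference changed sign for Igfbp4, to 1.36 with expanded clones counted from 3 cells and 1.81 with TRAV16N cells only. With 1 library left out, the Igfbp4 difference ran from -1.97 to 1.44. With 1 cell per clone the sign changed for Tdrp (-1.06) and Dapl1 (-0.0024). The number of the 7 genes whose clone size change differed between islet IGRP- and spleen IGRP+ was 4. It was 0 with no replicate block, 1 with 1 cell per clone and 2 with TRAV16N cells only. The causes were not tested.

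Leaving the library pairing out lowered the counts by clone size, and adding the round as a replicate block raised those between populations. Genes called by clone size numbered 4964 in islet IGRP-, 1838 in spleen and 992 for the difference. Without the block they were 918, 460 and 14, with DESeq2 2134, 1153 and 465, with 1 cell per clone 2082, 362 and 74, and with TRAV16N cells only 1371, 399 and 68. Leaving out 1 library gave 2697 to 5344, 841 to 1735 and 362 to 704. Islet IGRP+ against islet IGRP- called 134 genes, 3442 with the block, 574 with DESeq2, 711 without the filter and 0 to 30 with 1 library left out. Spleen IGRP+ called 3004 genes against islet IGRP+ (6215 with the block, 892 to 2050 with 1 library left out) and 2530 against islet IGRP- (6251 and 382 to 2547).

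Between islet populations the quiescence list went from 7 called to 23 with the block, 13 with DESeq2, 12 without the filter and 0 to 6 with 1 library left out. The activation list went from 1 to 13, 7, 7 and 0, the PI3K list from 0 to 4, 1 and 1, and the IGF list from 0 to 2 in each of these 3. Against islet IGRP- the spleen had 11 quiescence genes (22 with the block, 1 to 10 with 1 library left out), 4 PI3K genes (7, and 0 to 4) and 4 IGF genes (0 to 4). Against islet IGRP+ it had 4 PI3K genes (8 with the block, 1 to 4) and 2 IGF genes (1 with cells holding a CD3 or CD8 UMI only, 0 to 2). The block changed no call of the 7 genes by clone size within a tissue. Each population had 2 libraries, and the clone size fit had 2 residual degrees of freedom. The quasi-likelihood p-values therefore rest on a spread shared over all genes as well as on each gene's own spread between these samples. Depth limits Igfbp4 in islet IGRP+, where the libraries held 4 and 1 UMIs.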
